A study of Homo sapiens with 12 samples.

Results

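Interferon-stimulated genes are the genes that cells switch on when an interferon is sensed, and the list described here holds 43 of them, chosen by gene symbol from the known targets of type I and type II interferons. All 43 were found among the 20030 genes of the expression table. The table gives FPKM, a count of fragments scaled to transcript length and library size. The 12 libraries came from 2 human acute myeloid leukaemia cell lines, MOLM-13 and THP-1, both of which carry a rearranged MLL gene. MOLM-13 also carries the FLT3 internal tandem duplication, whereas FLT3 is wild type in THP-1. Each line was cultured for 48 h with Jiyuan oridonin A (JOA, an ent-kaurene diterpenoid) or with its solvent DMSO as control, at 3 libraries a group. The JOA dose was 0.5 μM in MOLM-13 and 2 μM in THP-1, so that line and dose cannot be told apart in any contrast of treated cells. Each line is a single established cell line, and no source states that the 3 libraries of a group are separate cultures, so the p-values below measure only the spread between these libraries.

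Type I interferons bind the receptor IFNAR1-IFNAR2, whose kinases JAK1 and TYK2 phosphorylate transcription factors that include STAT2. With IRF9 these form a complex that binds the interferon-stimulated response element in the promoters of target genes. Type II interferon acts through IFNGR1-IFNGR2, JAK1 and JAK2 on promoters with gamma-activated sites. The targets include sensors of viral RNA, antiviral effectors and proteins that restrain the signal, and many are transcribed at a low level even in cells that meet no interferon.

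Within a line the libraries correlated at 0.987 to 0.996 on the log2 scale and differed in relative depth by little (0.897 to 1.00 in MOLM-13 and 0.936 to 1.07 in THP-1, against control replicate 1). The total depth is unknown. Myeloid genes were present in every group (mean SPI1 of 39.9 ± 1.9 FPKM in control THP-1 and 55.5 ± 5.08 in control MOLM-13, SD, n = 3), and the erythroid markers HBB and ALAS2 were listed at 0 throughout. Among lymphoid markers CD3D reached a mean of 2.83 ± 1.17 FPKM in control MOLM-13 and was listed at 0 in THP-1, whereas CD3E and CD2 stayed at or under 0.0293 FPKM in every library. The epithelial marker KRT18 had a mean of 7.72 ± 0.771 FPKM in control MOLM-13 and 1.53 ± 1.24 in control THP-1, and EPCAM did not exceed 0.105 in any library. The part of these markers in the differences between the lines was not tested. CLEC4C and LILRA4, which mark plasmacytoid dendritic cells, the main producers of type I interferon, stayed at or under a group mean of 0.241 FPKM, with that highest mean for CLEC4C in MOLM-13 with JOA. In bulk RNA, fewer cells with a transcript and less transcript per cell cannot be told apart.

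The core of the interferon-stimulated response element (GAAA, any 2 bases and GAAA again, searched on both strands) occurred in the 300 bases from 250 before to 50 after the transcription start of 23 of the 34 members with an entry among the RefSeq promoters of GRCh38.p14. That is 67.6% of these members against 4.38% of all 27305 genes with an entry, a gene being counted if any of its promoters held the core (3.57% of all 35116 promoters). The letters TTCNNNGAA (the gamma-activated site, N being any base, both strands, which may overlap the core) were found in 10 of the 34, or 29.4%, against 9.38% of all genes and 7.66% of all promoters. The 250 bases before the start are printed for 4 members with large differences between the lines and for IFITM1, which had the most negative log2 difference with JOA among the members tested in MOLM-13. Each runs 5′ to 3′ on the strand of its gene, with matches to this core on either strand in capitals. On GRCh38.p14 they lie at chr1:27672193-27672442 (minus strand, IFI6), chr4:88456869-88457118 (plus, HERC5), chr12:112938224-112938473 (plus, OAS3), chr17:78979924-78980173 (minus, LGALS3BP) and chr11:313790-314039 (plus, IFITM1).
IFI6: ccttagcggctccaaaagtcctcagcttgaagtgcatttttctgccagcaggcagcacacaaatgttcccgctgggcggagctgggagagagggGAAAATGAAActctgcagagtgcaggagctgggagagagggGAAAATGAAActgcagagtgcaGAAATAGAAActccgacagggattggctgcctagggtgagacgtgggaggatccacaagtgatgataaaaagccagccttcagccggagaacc
HERC5: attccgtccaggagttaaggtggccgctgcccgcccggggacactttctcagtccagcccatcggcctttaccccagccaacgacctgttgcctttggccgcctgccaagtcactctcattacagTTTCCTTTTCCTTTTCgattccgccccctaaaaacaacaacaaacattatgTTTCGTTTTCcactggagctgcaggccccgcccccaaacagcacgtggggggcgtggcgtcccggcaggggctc
OAS3: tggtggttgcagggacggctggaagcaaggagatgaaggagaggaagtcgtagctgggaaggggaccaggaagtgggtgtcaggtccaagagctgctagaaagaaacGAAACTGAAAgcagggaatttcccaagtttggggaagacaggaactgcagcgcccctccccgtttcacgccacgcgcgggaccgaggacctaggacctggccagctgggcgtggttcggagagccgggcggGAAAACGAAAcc
LGALS3BP: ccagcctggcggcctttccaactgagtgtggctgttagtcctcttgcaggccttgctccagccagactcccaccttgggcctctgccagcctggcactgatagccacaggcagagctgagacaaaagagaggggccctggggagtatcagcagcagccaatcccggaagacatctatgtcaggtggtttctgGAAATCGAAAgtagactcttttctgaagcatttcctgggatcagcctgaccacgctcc
IFITM1: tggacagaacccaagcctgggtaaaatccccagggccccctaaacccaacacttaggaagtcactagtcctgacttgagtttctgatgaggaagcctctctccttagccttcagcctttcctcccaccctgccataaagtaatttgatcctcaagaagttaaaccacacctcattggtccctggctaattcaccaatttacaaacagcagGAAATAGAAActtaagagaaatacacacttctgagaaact
IFI6 held 3 matches, which begin 156, 115 and 93 bases before the start. HERC5 also held 3, at 125, 119 and 74 bases, of which the first and the second overlap. OAS3 held matches at 143 and 12 bases, LGALS3BP at 58 bases and IFITM1 at 40 bases. In the 300 bases searched IFITM1 held 2 matches, of which only 1 lies within the stretch printed. A match is only a run of letters and not a measured binding site. Of the 23 members with the core, 11 were higher in control THP-1 than in control MOLM-13, 8 were not called and 4 were too low to test. Among these 11, IFI27, OAS3, IFI44 and IFIT5 had means under 0.1 FPKM in control MOLM-13. They could be tested only through THP-1, where they were high, so their calls are not independent evidence of a difference. Of the 11 without it, 5 were higher, 1 was lower and 5 were not called. Of all genes tested, 25% were called higher and 19% lower.

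Most of the list was transcribed at a low to moderate level in both lines. BST2 (tetherin, which holds budding virus at the cell surface) had the highest mean among the members in every group, with 73.7 ± 7.87 FPKM in control MOLM-13 and 62.5 ± 9.53 in control THP-1 (SD, n = 3). SAMHD1, IFITM2, ISG15 and TRIM22 also had means above 8 FPKM in each group. At the other end GBP1 and ISG20 did not exceed 0.0156 and 0.0707 FPKM in any library, and IFI44L did not exceed 0.0435. IFI27 was listed at 0 in 6 of the 12 libraries, 5 of them MOLM-13, and GBP1 also in 6.

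**Figure D1:**
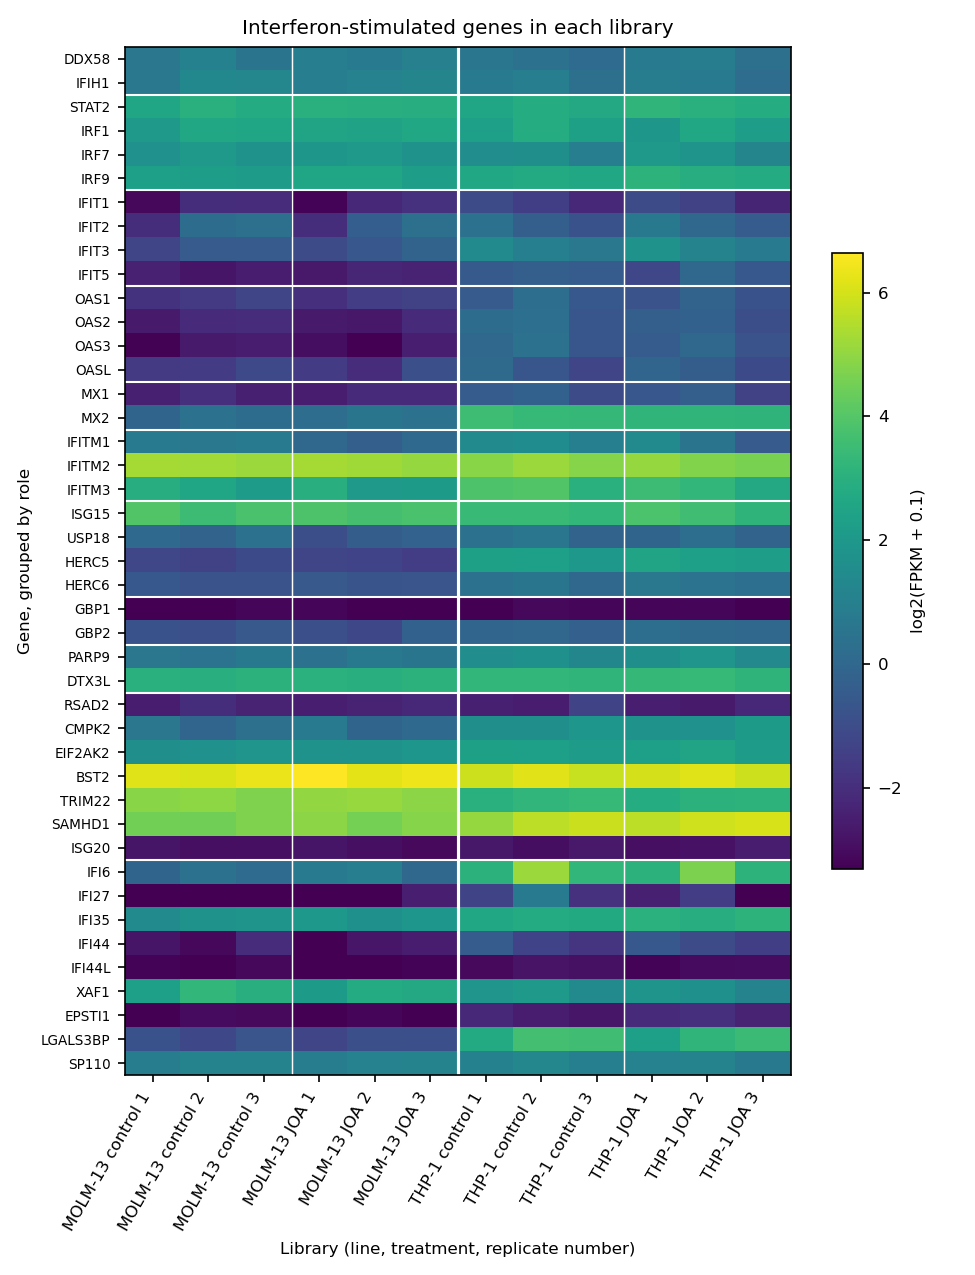
Level of the 43 interferon-stimulated genes in each of the 12 libraries, as log2(FPKM + 0.1), with genes grouped by role and white lines between roles and groups. BST2 is bright in every column. The rows of OAS1, OAS2, OAS3, MX1 and MX2, and further down those of IFI6, IFI35 and IFI44, are brighter in the 6 THP-1 columns than in the 6 MOLM-13 columns. Some rows between them, such as that of HERC5, are brighter there too, and others, such as that of ISG15, are not.

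The first comparison set control THP-1 against control MOLM-13, the baseline difference between the lines. It was fitted with limma on log2(FPKM + 0.1) over the 12635 genes with a mean of at least 0.1 FPKM, and a gene was called at an adjusted p under 0.05 and a log2 difference of at least 0.58 in size. Of the 39 members tested, 20 were higher in THP-1, 2 were lower and 17 were not called. Over all genes 25% were called higher and 19% lower, and no test of the list against these shares was made. The median log2 difference was 0.83 for the members tested and 0.06 for all genes tested. GBP1, ISG20, IFI44L and EPSTI1 were too low to test. The filter used the mean over both lines, so a gene could pass through either line alone. Of the members called, IFI27, OAS3, IFI44 and IFIT5 had control MOLM-13 means of 0, 0.0456, 0.0684 and 0.0714 FPKM. They passed only through THP-1, where they were high, so their calls and p-values are not independent evidence of a difference. They are included in the 20 and in the median of 0.83. IFIT1, which was not called, had a control MOLM-13 mean of 0.0995 FPKM. It also passed only through THP-1 and is included in that median. The members called did not include the RNA sensors, the transcription factors or ISG15 itself.

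The 2 sensors of viral RNA were not called between the lines. DDX58 (RIG-I) was at 1.43, 1.96 and 1.32 FPKM in control MOLM-13 and at 1.42, 1.24 and 1.01 in control THP-1, and the groups overlapped. IFIH1 (MDA5) was at 1.48, 2.43 and 2.33 FPKM in MOLM-13 and 1.66, 1.8 and 1.19 in THP-1, again with overlap. Their log2 differences were -0.33 ± 0.18 (SE, adjusted p = 0.128) and -0.39 ± 0.22 (SE, adjusted p = 0.137).

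None of the 4 transcription factors passed both thresholds. IRF9, the DNA-binding subunit of the type I interferon complex, was at 4.78, 4.56 and 4.29 FPKM in MOLM-13 and 6.22, 6.77 and 6.23 in THP-1. All 3 THP-1 values lay above all 3 MOLM-13 values, but the log2 difference of 0.49 ± 0.079 (SE, adjusted p = 0.000677) was under the size required. IRF7, which amplifies type I interferon production, was at 3.21, 4.0 and 3.36 FPKM in MOLM-13 and lower at 2.88, 2.99 and 1.84 in THP-1 without overlap (-0.46 ± 0.18, SE, adjusted p = 0.0492). STAT2 was at 5.72, 8.04 and 6.89 FPKM in MOLM-13 and 5.79, 7.13 and 6.3 in THP-1, and IRF1 at 3.99, 5.99 and 5.87 and 4.9, 7.07 and 5.04. Both overlapped, with log2 differences of -0.094 ± 0.13 (SE, adjusted p = 0.543) and 0.10 ± 0.19 (SE, adjusted p = 0.641). IRF9 shares all of its longest transcript with a longer annotated transcript, AL136295.5, so its level may not be its own alone.

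The OAS family makes the oligoadenylates that activate RNase L, and all 4 members were called higher in THP-1. OAS1, OAS3 and OAS2 lie side by side at chr12:112906962-113011723 (GRCh38.p14), and OASL, which lacks the enzymatic activity, lies further along the chromosome at chr12:121017761-121039246. OAS3 was at 0.00537, 0.0643 and 0.0673 FPKM in control MOLM-13 and 0.902, 1.22 and 0.529 in control THP-1, a log2 difference of 2.72 ± 0.30 (SE, adjusted p = 7.56e-05). OAS2 was at 0.0647, 0.129 and 0.137 FPKM against 1.06, 1.13 and 0.538 (2.22 ± 0.28, SE, adjusted p = 0.000151), and OAS1 at 0.178, 0.227 and 0.326 against 0.625, 1.12 and 0.573 (1.31 ± 0.26, SE, adjusted p = 0.00218). For these 3 genes every THP-1 library lay above every MOLM-13 library. OASL was at 0.22, 0.241 and 0.362 FPKM against 0.994, 0.54 and 0.322, the groups overlapped, and its call at 0.85 ± 0.33 (SE, adjusted p = 0.0468) was lost without MOLM-13 control replicates 1 or 2, without THP-1 control replicates 1 or 2 (0.49 to 0.88 on the log2 scale) and under 7 other settings.

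The MX proteins are dynamin-like GTPases that block viral replication, and both were higher in THP-1. MX2 was at 0.839, 1.25 and 1.05 FPKM in control MOLM-13 and 11.5, 10.2 and 9.78 in control THP-1, and its log2 difference was 3.22 ± 0.14 (SE, adjusted p = 3.77e-07), or 9.32-fold on the scale of FPKM + 0.1. MX1, its neighbour on chromosome 21, was at 0.084, 0.152 and 0.0828 FPKM against 0.652, 0.766 and 0.38 (1.73 ± 0.25, SE, adjusted p = 0.00037). Neither overlapped between the lines, and MX2 stood higher than MX1 in every library.

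The IFIT proteins bind viral RNA, and 2 of the 4, IFIT5 and IFIT3, were called higher. The family lies together at chr10:89302046-89420997. IFIT5 was at 0.0905, 0.0498 and 0.0738 FPKM in control MOLM-13 and 0.609, 0.716 and 0.645 in control THP-1, with a log2 difference of 2.15 ± 0.17 (SE, adjusted p = 8.62e-06). IFIT3 was at 0.319, 0.624 and 0.619 FPKM against 2.55, 1.85 and 1.48 (1.74 ± 0.26, SE, adjusted p = 0.000437). IFIT1 and IFIT2 overlapped between the lines and were not called. IFIT1 was at 0.0156, 0.145 and 0.138 FPKM against 0.39, 0.261 and 0.115 (0.83 ± 0.38, SE, adjusted p = 0.0827), and IFIT2 at 0.148, 1.04 and 1.19 against 1.2, 0.717 and 0.478 (0.25 ± 0.60, SE, adjusted p = 0.72). In MOLM-13 the level of IFIT2 in control replicate 1 was far below that in the other 2.

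The IFITM proteins sit in membranes and block the entry of viruses, and their genes lie close together at chr11:307816-320860. Only IFITM3 was called, at 7.29, 5.68 and 4.49 FPKM in control MOLM-13 and 14.3, 15.4 and 7.89 in control THP-1 (1.06 ± 0.26, SE, adjusted p = 0.0065), with no overlap. IFITM1 was at 1.67, 1.5 and 1.59 FPKM against 2.59, 2.8 and 1.88 and did not overlap either, but its log2 difference of 0.56 ± 0.15 (SE, adjusted p = 0.0104) was under the size required. IFITM2 was at 39.1, 38.9 and 35.5 FPKM against 29.1, 35.7 and 28.5 (-0.29 ± 0.093, SE, adjusted p = 0.0227) and leaned the other way. These genes share sequence: 39.0% of the 50-base windows of the longest IFITM1 transcript, and 14.4% of those of IFITM3, also occur in IFITM2, and how the reads of such stretches were assigned is not given in the sources used here.

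ISG15 is a ubiquitin-like protein, HERC5 is the ligase that attaches it, and USP18 removes it and also damps signalling at the receptor. HERC5 was at 0.339, 0.286 and 0.376 FPKM in control MOLM-13 and 4.97, 4.87 and 3.94 in control THP-1, a log2 difference of 3.43 ± 0.14 (SE, adjusted p = 2.69e-07) and a 10.8-fold ratio of FPKM + 0.1. HERC6, the related gene beside it on chromosome 4, was at 0.571, 0.488 and 0.486 FPKM against 1.22, 1.36 and 0.943 (1.04 ± 0.16, SE, adjusted p = 0.000477). Both were apart between the lines and called. ISG15 was not called and was lower in each THP-1 library, at 15.1, 11.2 and 13.7 FPKM in MOLM-13 against 10.3, 10.3 and 9.59 in THP-1 (-0.39 ± 0.11, SE, adjusted p = 0.0115). USP18 was at 0.951, 0.81 and 1.2 FPKM against 1.25, 1.4 and 0.81 and overlapped (0.19 ± 0.21, SE, adjusted p = 0.458). Of the windows of USP18, 23.0% also occur in USP41.

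Among the remaining antiviral effectors 2 were higher in THP-1 and 1 was lower. SAMHD1, which breaks down deoxynucleotides, was at 23.2, 22.2 and 26.2 FPKM in control MOLM-13 and 33.9, 49.8 and 58.1 in control THP-1 (0.95 ± 0.18, SE, adjusted p = 0.00146). CMPK2, a mitochondrial nucleotide kinase, was at 1.45, 0.847 and 1.19 FPKM against 3.02, 3.03 and 3.64 (1.42 ± 0.18, SE, adjusted p = 0.000166). TRIM22, an antiviral member of the tripartite motif family, stood the other way at 29.2, 30.6 and 26.3 FPKM in MOLM-13 against 7.9, 9.28 and 10.1 in THP-1, and its log2 difference was -1.65 ± 0.10 (SE, adjusted p = 2.27e-06). None of these 3 overlapped. EIF2AK2 (the RNA-activated kinase PKR), BST2 and RSAD2 (viperin) were not called, with log2 differences of 0.52, -0.24 and 0.19. CMPK2 and RSAD2 overlap at their ends on chromosome 2, as do PARP9 and DTX3L on chromosome 3, and whether reads were counted by strand is not given in the sources used here.

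GBP2, an interferon-induced GTPase, was at 0.467, 0.434 and 0.591 FPKM in control MOLM-13 and 0.857, 0.888 and 0.739 in control THP-1 (0.64 ± 0.15, SE, adjusted p = 0.00526). The groups were apart, but without MOLM-13 control replicate 2 the log2 difference was 0.56, under the size required. PARP9 and DTX3L form a complex that ADP-ribosylates and ubiquitinates its targets. PARP9 was at 1.46, 1.28 and 1.52 FPKM against 2.89, 3.14 and 2.27 and was called (0.90 ± 0.14, SE, adjusted p = 0.000491). DTX3L was at 7.84, 7.61 and 8.49 FPKM against 9.7, 9.65 and 9.17, apart as well but with a log2 difference of only 0.25 ± 0.070 (SE, adjusted p = 0.0119).

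The largest differences lay among the other induced genes, of which 5 were called higher and 1 lower among 7 tested. LGALS3BP, a secreted glycoprotein that binds galectins, was at 0.468, 0.35 and 0.51 FPKM in control MOLM-13 and 6.73, 12.7 and 11.9 in control THP-1, a log2 difference of 4.24 ± 0.24 (SE, adjusted p = 1.46e-06), or 18.9-fold. IFI6, a small mitochondrial protein, was at 0.818, 1.23 and 1.02 FPKM against 8.36, 35.4 and 9.53 (3.68 ± 0.48, SE, adjusted p = 0.000198). Its THP-1 replicate 2 was far above the other 2, and without it the log2 difference was 3.02. IFI27 was listed at 0 in all 3 control MOLM-13 libraries and was at 0.318, 1.62 and 0.166 FPKM in control THP-1, so that no fold is given (adjusted p = 0.00511, limma). IFI44 was at 0.0476, 0.0175 and 0.14 FPKM against 0.657, 0.307 and 0.181 (1.46 ± 0.40, SE, adjusted p = 0.0103), and IFI35, a cytoplasmic partner of NMI, at 2.61, 3.34 and 3.5 against 6.14, 6.92 and 6.56 (1.04 ± 0.12, SE, adjusted p = 8.70e-05). XAF1, a pro-apoptotic partner of XIAP, was the second gene called lower in THP-1, at 4.86, 9.62 and 7.56 FPKM in MOLM-13 against 3.55, 4.07 and 2.61 (-1.05 ± 0.25, SE, adjusted p = 0.0052). All of these were apart between the lines. SP110, a nuclear body protein, overlapped (0.062 ± 0.13, SE, adjusted p = 0.679).

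**Figure D2:**
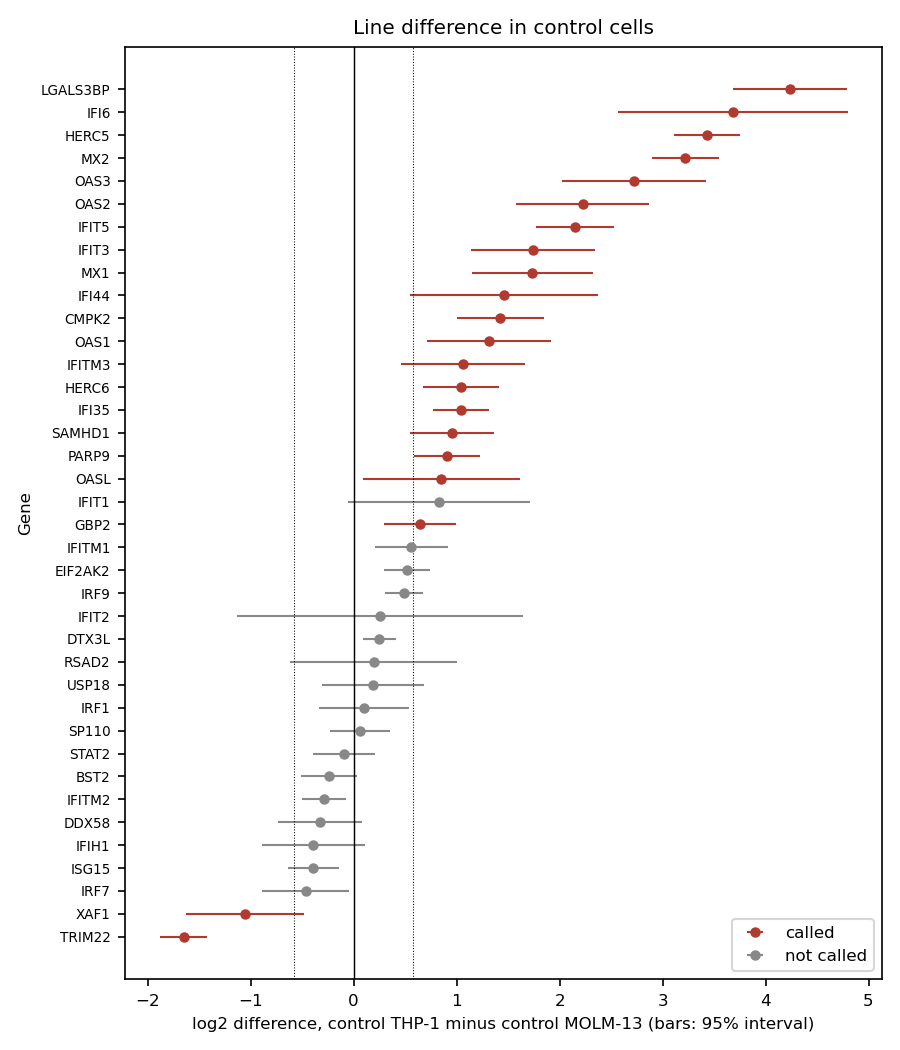
Difference between control THP-1 and control MOLM-13 in log2(FPKM + 0.1) for 38 of the 39 members tested (points, with 95% intervals from limma), leaving out IFI27, which was at 0 in every control MOLM-13 library. Members called are red and dotted lines mark a size of 0.58: the red points run from LGALS3BP at 4.24 to GBP2 at 0.64, with XAF1 and TRIM22 alone below zero.

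The genes upstream of the members were compared in the same way, from a list of 98 genes of the wider interferon pathway. Of the 71 tested, 13 were higher and 16 lower in control THP-1, against 25% and 19% of all genes. Among those called, SIGLEC1 and GBP4 had means under 0.1 FPKM in control MOLM-13, and IFNLR1, TLR8 and CXCL11 in control THP-1. These passed the filter only through the other line. Among 21 interferon genes none reached a mean of 0.1 FPKM in the libraries compared. IFNB1 was listed at 0.148 and 0.0971 FPKM in 1 control and 1 JOA library of MOLM-13, IFNL3 at 0.0827 in 1 control library, and the other 19 at 0 in all 12 libraries. The receptor chains of type I and type II interferon were not called: IFNAR1 was at 9.31 ± 0.0568 FPKM in control MOLM-13 and 8.55 ± 0.268 in control THP-1 (SD, n = 3), the log2 differences of IFNAR2 and IFNGR1 were -0.51 and -0.52, and that of IFNGR2 was close to zero. IFNLR1, which binds type III interferon, was at 0.357, 0.439 and 0.537 FPKM in MOLM-13 and at 0, 0.00626 and 0 in THP-1 (-2.4 ± 0.19, SE, adjusted p = 9.37e-06), whereas its partner IL10RB was higher in THP-1 (0.68 ± 0.063, SE, adjusted p = 2.45e-05).

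Of the kinases TYK2 was lower in THP-1 at 14 ± 1.14 FPKM against 23.3 ± 1.32 (-0.73 ± 0.079, SE, adjusted p = 6.05e-05), and JAK1 and JAK2 were not called (-0.20 and 0.031). STAT3 was called higher (0.63) and IRF3 lower (-1.09). Among the restraints on the pathway 3 of 7 were lower in THP-1, where 19% of all genes were lower. SOCS1, an inhibitor of JAK kinases that interferon itself induces, was at 13.8, 15.9 and 13.4 FPKM in control MOLM-13 and 0.814, 0.591 and 0.748 in control THP-1 (-4.15 ± 0.13, SE, adjusted p = 7.80e-08). PTPN6 and TRIM21 were also lower (-0.96 and -0.60).

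Other induced genes outside the 43 stood in both directions, with 9 of 37 higher and 6 lower, near the 25% and 19% of all genes. SIGLEC1 (3.21), GBP4 (2.55), APOL1 (1.96), UBE2L6 (1.83), GBP5 (1.26) and ADAR (0.98) were among those higher, and PARP10 (-1.61), CXCL11 (-1.2), IFI30 (-1.08) and TRIM5 (-0.99) among those lower. The sensors DHX58 (2.69) and IFI16 (1.72) were higher, and TLR8, TLR9, TICAM1 and MAVS were lower (-0.99, -0.81, -0.72 and -0.58). UBE2L6 is the conjugating enzyme that acts with HERC5 on ISG15.

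The second question was whether JOA changed these genes within each line. In MOLM-13, no member was called by limma among 33 tested, and neither was any of all 11693 genes tested (0%). At an unadjusted p under 0.05 there were 2, both lower, where 2.54% of all genes were higher and 1.57% lower at this threshold, and none was called when same-numbered libraries were blocked. The log2 difference was above zero for 19 members and below zero for 14, with a median of 0.01 for the members and 0.0055 for all genes. The 10 members too low to test were IFIT1, IFIT5, OAS2, OAS3, GBP1, ISG20, IFI27, IFI44, IFI44L and EPSTI1. The JOA and control libraries did not overlap for 2 members, both lower, where 4.55% of all genes were lower and 5.1% higher without overlap. In 7 members every same-numbered pair was higher with JOA and in 4 every pair was lower, against 18.5% and 15.7% of all genes.

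The 5 members with the largest differences in MOLM-13 were IFITM1, USP18, IFI6, XAF1 and IRF9. IFITM1 was at 1.67, 1.5 and 1.59 FPKM in control and 0.927, 0.705 and 0.968 with JOA, so that every treated library lay below every control library. Its log2 difference was -0.81 ± 0.14 (SE), with an adjusted p of 0.777 and of 0.223 with the block. USP18 was at 0.951, 0.81 and 1.2 FPKM in control and 0.42, 0.665 and 0.789 with JOA, again without overlap (-0.61 ± 0.22, SE, adjusted p = 1.0).
IFI6 was at 0.818, 1.23 and 1.02 FPKM in control and 1.69, 1.83 and 0.924 with JOA, XAF1 at 4.86, 9.62 and 7.56 and 4.2, 6.99 and 6.4, and IRF9 at 4.78, 4.56 and 4.29 and 5.71, 5.82 and 4.61. These 3 overlapped, with log2 differences of 0.46, -0.30 and 0.23 and adjusted p-values of 1.00. Leaving out 1 library at a time moved IFI6 from 0.28 without JOA replicate 2 to 0.74 without JOA replicate 3, and XAF1 from -0.57 without control replicate 1 to -0.08 without control replicate 2. USP18 was -0.39 without JOA replicate 1.

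In THP-1, at 2 μM, no member was called by limma among 40 tested, against 17 of all 12712 genes (0.134%). At an unadjusted p under 0.05 there were 3 higher and 1 lower among the 40, where 10.9% of all genes were higher and 5.99% lower at this threshold. Once same-numbered libraries were blocked, 1 member, IFI27, was called lower, where 1.27% of all genes were called in either direction. The log2 difference was above zero for 21 members and below for 19, with a median of 0.02 for the members and for all genes. GBP1, ISG20 and IFI44L were too low to test. Without overlap 4 members were higher and 1 was lower, against 14.6% and 8.81% of all genes. In 13 members every same-numbered pair was higher with JOA and in 15 every pair was lower, against 29.3% and 19.5% of all genes.

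IFI27 was at 0.318, 1.62 and 0.166 FPKM in control THP-1 and 0.0838, 0.25 and 0 with JOA, lower in each same-numbered pair although the groups overlapped. Its log2 difference was -1.63 ± 0.71 (SE), with an adjusted p of 0.298 and of 0.0173 with the block. Without THP-1 control replicate 2, its highest library, the difference was -0.84 and the adjusted p 0.572 without the block. IFITM1 was at 2.59, 2.8 and 1.88 FPKM in control and 2.56, 1.34 and 0.62 with JOA, lower in each pair, with a log2 difference of -0.83 ± 0.41 (SE, adjusted p = 0.363) that went to -0.35 without JOA replicate 3. IFITM3 was at 14.3, 15.4 and 7.89 FPKM in control and 11.4, 9.63 and 6.36 with JOA, and IFITM2 at 29.1, 35.7 and 28.5 and 33.6, 26.7 and 25.2. Both overlapped, and their log2 differences were -0.43 ± 0.28 (SE, adjusted p = 0.487) and -0.13 ± 0.12 (SE, adjusted p = 0.64). That of IFITM3 ran from -0.73 without control replicate 3 to -0.19 without JOA replicate 3.

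The 4 OAS genes overlapped between control and JOA in THP-1. OAS2 was at 1.06, 1.13 and 0.538 FPKM in control and 0.702, 0.751 and 0.432 with JOA (-0.44 ± 0.29, SE, adjusted p = 0.485), OAS3 at 0.902, 1.22 and 0.529 and 0.641, 0.898 and 0.486, and OAS1 at 0.625, 1.12 and 0.573 and 0.49, 0.792 and 0.469. These 3 were lower with JOA in each same-numbered pair, and OASL, at 0.845, 0.669 and 0.369 FPKM with JOA, was higher in 2 of 3 pairs. LGALS3BP was at 6.73, 12.7 and 11.9 FPKM in control and 4.86, 9.0 and 11.1 with JOA (-0.35 ± 0.33, SE, adjusted p = 0.636). Leaving out 1 library at a time moved LGALS3BP from -0.64 without control replicate 1 to -0.011 without JOA replicate 1, and OAS2 from -0.74 without control replicate 3 to -0.23 without JOA replicate 3. MX2 was the member lower without overlap, at 11.5, 10.2 and 9.78 FPKM in control and 9.07, 9.2 and 8.9 with JOA (-0.21 ± 0.071, SE, adjusted p = 0.201). With the block IFITM3, LGALS3BP and SAMHD1 had adjusted p-values of 0.0239, 0.0451 and 0.0353, but log2 differences of -0.43, -0.35 and 0.35, all under the size required.

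The members higher without overlap in THP-1 included STAT2 and IRF9, which act together in the type I interferon complex. STAT2 was at 5.79, 7.13 and 6.3 FPKM in control and 9.17, 7.99 and 7.18 with JOA (0.33 ± 0.11, SE, adjusted p = 0.184), and IRF9 at 6.22, 6.77 and 6.23 and 8.65, 7.4 and 6.95 (0.25 ± 0.090, SE, adjusted p = 0.219). IFI35 was at 6.14, 6.92 and 6.56 FPKM in control and 8.17, 7.28 and 8.72 with JOA (0.29 ± 0.083, SE, adjusted p = 0.142), and GBP2 at 0.857, 0.888 and 0.739 and 1.12, 0.978 and 0.916 (0.25 ± 0.13, SE, adjusted p = 0.376). None of these 4 passed either threshold. IRF1 and IRF7 overlapped in both lines. In THP-1 with JOA they were at 3.78, 6.01 and 4.77 and 4.06, 3.52 and 2.2 FPKM, and in MOLM-13 with JOA at 5.54, 5.26 and 6.06 and 3.81, 4.1 and 3.25.

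**Figure D3:**
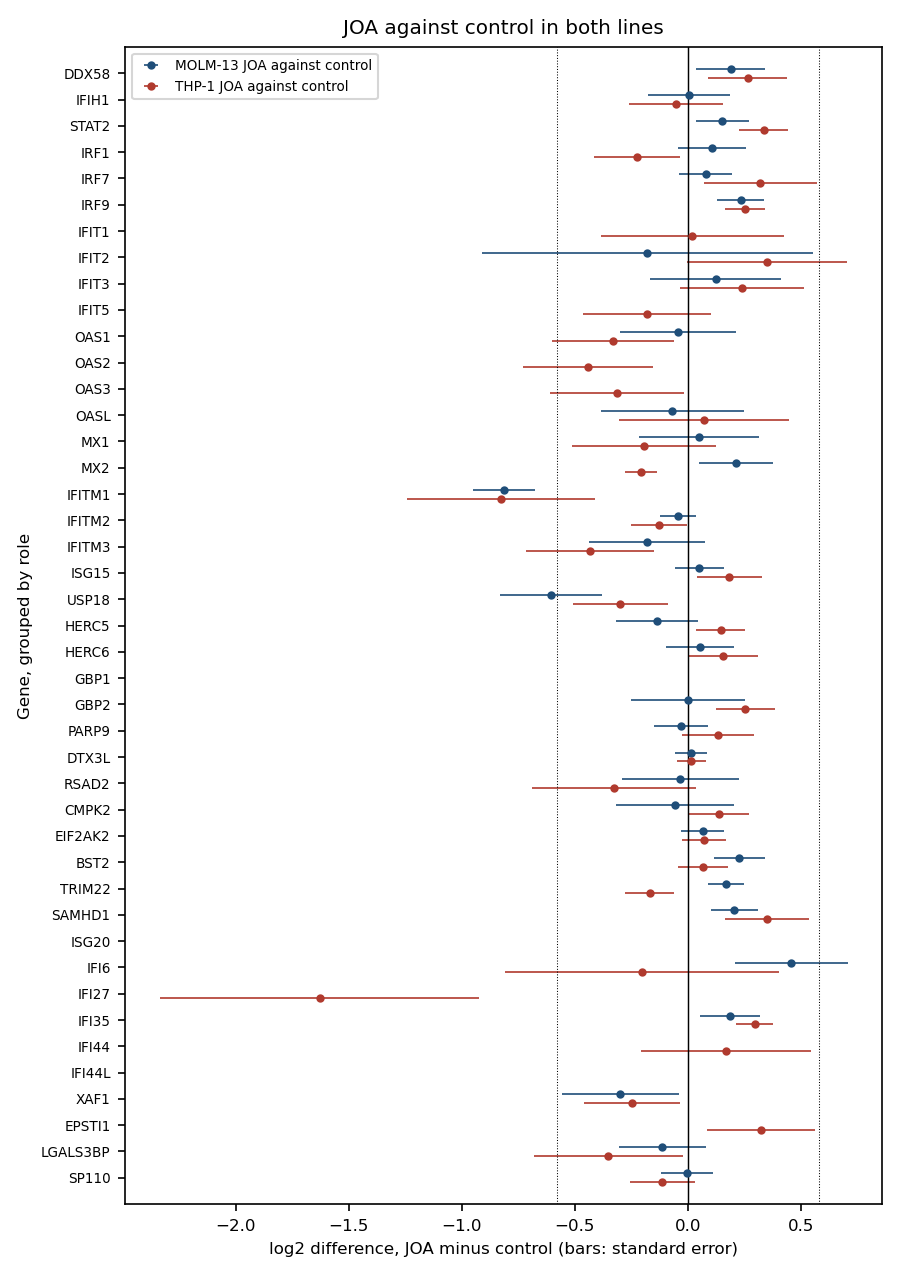
Difference between JOA and control in log2(FPKM + 0.1) for each member tested in MOLM-13 (blue) and in THP-1 (red), with standard errors from limma and dotted lines at a size of 0.58. Most points lie within the dotted lines, and IFITM1 in both lines, USP18 in MOLM-13 and IFI27 in THP-1 lie to the left of them, though none was called without the replicate block.

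The intervals show what these comparisons could resolve. The 95% interval of the JOA difference was -0.15 to 0.18 for DTX3L in MOLM-13 and -0.14 to 0.17 in THP-1, -0.20 to 0.30 and -0.15 to 0.52 for ISG15, -0.56 to 0.65 and -0.93 to 0.54 for MX1, and -1.86 to 1.5 and -0.47 to 1.17 for IFIT2. A change of 0.58 thus lay outside the interval for DTX3L and ISG15 and inside it for MX1 and IFIT2 in one direction or both. Of the wider pathway list no gene was called in either line, with 4 higher and 1 lower at an unadjusted p under 0.05 among 70 in MOLM-13, and 6 higher and 3 lower among 67 in THP-1. The shares of all genes at that threshold were 2.54% and 1.57% in MOLM-13 and 10.9% and 5.99% in THP-1. With the block TLR9 was called lower in THP-1, at 1.22, 1.36 and 0.778 FPKM in control and 0.606, 0.771 and 0.584 with JOA (log2 difference -0.67, adjusted p = 0.0338 with the block). SOCS1 in MOLM-13 was at 13.8, 15.9 and 13.4 FPKM in control and 21.1, 16.4 and 20.1 with JOA, without overlap (0.41 ± 0.11, SE, adjusted p = 1.0).

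Whether the JOA difference itself differed between the lines was tested as an interaction over all 12 libraries, where line and dose cannot be told apart. No member of 39 was called by limma, with or without the block, and neither was any of 12626 genes without it (0%). At an unadjusted p under 0.05 there were 3, all with a more negative difference in THP-1, where 4.61% of all genes had a more positive and 2.63% a more negative difference at this threshold: TRIM22 (-0.34 ± 0.14, SE, adjusted p = 0.64), MX2 (-0.42 ± 0.18, SE, adjusted p = 0.662) and IFI27 (adjusted p = 0.665), for which no size is given because it was listed at 0 in control MOLM-13. MX2 was at 1.07, 1.38 and 1.21 FPKM with JOA in MOLM-13, above control in each same-numbered pair. TRIM22 was at 32.5, 34.3 and 30 FPKM with JOA in MOLM-13, above control in each pair, and at 7.14, 8.4 and 8.63 with JOA in THP-1, below control in each pair.

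The difference between the lines was measured again in the JOA-treated libraries, which are other libraries than the controls but of the same lines. Same-numbered control and JOA libraries deviated together in the members, as given below. This second comparison is therefore not an independent repeat of that in the controls. Of the 37 members tested there, 19 were higher in THP-1 and 2 lower, against 26.1% and 18.9% of all genes. All 21 had been called in the same direction in the controls, and of the 37 tested in both comparisons 34 had the same sign. The one member called in the controls and not here was IFI27, which was too low to test. Among the 19, OAS2, OAS3, IFI44 and IFIT5 had treated MOLM-13 means of 0.0834, 0.036, 0.04 and 0.0886 FPKM. They passed the filter only through THP-1, so their calls are not independent evidence of a difference. LGALS3BP was at 0.323, 0.443 and 0.436 FPKM in treated MOLM-13 and 4.0 higher in THP-1 on the log2 scale. HERC5 was at 0.322, 0.306 and 0.254 FPKM in treated MOLM-13 and 5.58, 4.88 and 4.77 in treated THP-1 (3.72 ± 0.12, SE, adjusted p = 8.48e-08), and MX2 differed by 2.8 ± 0.099 (SE, adjusted p = 1.32e-07).

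The other members called in treated cells included all 4 OAS genes. OAS3 was at 0.0303, 0 and 0.0777 FPKM in treated MOLM-13, OAS2 at 0.0634, 0.0579 and 0.129, OAS1 at 0.153, 0.253 and 0.295 and OASL at 0.234, 0.139 and 0.445, and the log2 differences of THP-1 from MOLM-13 were 2.52, 1.98, 1.03 and 0.99. IFIT3 was at 0.382, 0.549 and 0.799 FPKM in treated MOLM-13 and 3.41, 2.11 and 1.63 in treated THP-1, and IFIT5 at 0.0587, 0.109 and 0.098 and 0.332, 0.91 and 0.577, with log2 differences of 1.86 and 1.83. Both IFIT genes were apart, and the OAS genes were apart except OASL, whose call was lost without MOLM-13 JOA replicates 1 or 2 or THP-1 JOA replicates 1 or 2 (0.71 to 0.95 on the log2 scale).
MX1 was at 0.0755, 0.131 and 0.131 FPKM in treated MOLM-13 and 0.559, 0.718 and 0.287 in treated THP-1, and IFI6 differed by 3.02 ± 0.43 (SE, adjusted p = 0.000306) with 8.33, 25.6 and 8.65 FPKM in treated THP-1. IFI44 was at 0, 0.0513 and 0.0688 FPKM and 0.568, 0.405 and 0.265, and IFI35 at 3.93, 3.15 and 3.67 and 8.17, 7.28 and 8.72. All 4 were apart between the lines.
CMPK2 was at 1.62, 0.824 and 0.954 FPKM in treated MOLM-13 and 3.29, 3.17 and 4.28 in treated THP-1, SAMHD1 at 30.1, 23.8 and 28.9 and 50.8, 61.2 and 65.1, and PARP9 at 1.26, 1.55 and 1.37 and 3.04, 3.6 and 2.5. HERC6 was at 0.597, 0.498 and 0.518 FPKM and 1.48, 1.29 and 1.16, and GBP2 at 0.443, 0.347 and 0.763 and 1.12, 0.978 and 0.916. These 5 did not overlap, with log2 differences from 0.89 for GBP2 to 1.62 for CMPK2. IFITM3, at 7.63, 3.94 and 4.19 FPKM in treated MOLM-13, overlapped with THP-1 and differed by 0.81 ± 0.28 (SE, adjusted p = 0.0291). Its call was lost without MOLM-13 JOA replicates 2 or 3 or THP-1 JOA replicates 1 or 2 (0.63 to 0.75 on the log2 scale). XAF1 was at 4.2, 6.99 and 6.4 FPKM in treated MOLM-13 and 3.44, 3.11 and 2.07 in treated THP-1, and with TRIM22 it was lower there (-1.0 and -1.99).

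The members also varied with the replicate number. Within a line, the sum of squares of log2(FPKM + 0.1) over its 6 libraries was split into the part held by treatment, the part held by the number that a control and a JOA library share, and the rest. The number has 2 degrees of freedom and treatment 1, so the number holds the larger share on average even where neither has an effect, and the shares are read only against those of all genes. In MOLM-13 the number held a median of 73.3% and treatment 7.16% over the 33 members tested, against 57.3% and 10.8% over all genes tested. In THP-1 the number held 72.7% and treatment 16.4% over 40 members, against 41.7% and 23.4% over all genes. The number held more than treatment in 26 of 33 members in MOLM-13 (78.8%, near the 78.5% of all genes) and in 34 of 40 in THP-1 (85.0%, against 60.9%). The levels also lay further apart, since the range of the 3 number means had a median of 0.28 in MOLM-13 and 0.57 in THP-1 on the log2 scale, against 0.18 and 0.16 for all genes.

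**Figure D4:**
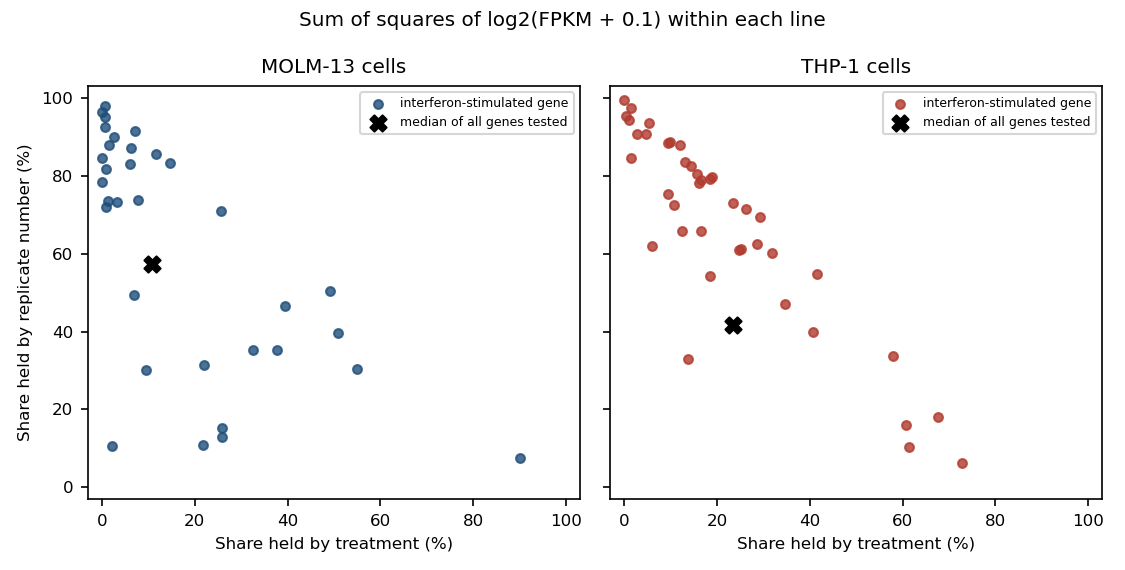
Share of the sum of squares within each line held by treatment (horizontal axis, %) and by replicate number (vertical axis, %), 1 circle for each member tested and a cross for the median of all genes tested. In THP-1 most circles lie above the cross at 41.7%, and IFIT1, IFI6, OASL, IFIH1, MX1, IFI44 and BST2 lie above 90%.

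In THP-1 replicate 3 was the lowest of its group in 29 of 40 members in control and in 31 of 40 with JOA, and replicate 2 was the highest in 24 in control and in 17 with JOA, as many as replicate 1. These counts were not made over all genes, so a trait of the members cannot be told apart here from a shift of the whole library. IFI6 was at 8.36, 35.4 and 9.53 FPKM in control and 8.33, 25.6 and 8.65 with JOA, with replicate 2 the highest in both groups. IFIT1 was at 0.39, 0.261 and 0.115 FPKM in control and 0.396, 0.292 and 0.102 with JOA, highest in replicate 1 of each group, as was IFIT2 at 1.2, 0.717 and 0.478 and 1.55, 0.933 and 0.65. The number held 97.3% of the sum of squares of IFI6, 99.3% of that of IFIT1 and 88.0% of that of IFIT2.
In MOLM-13 the same pattern was seen in IFIT2, at 0.148, 1.04 and 1.19 FPKM in control and 0.147, 0.698 and 1.17 with JOA, with replicate 1 the lowest in both groups (98.0% held by the number). Replicate 1 of IFIT3 was also the lowest, at 0.319, 0.624 and 0.619 FPKM in control and 0.382, 0.549 and 0.799 with JOA. At the other end treatment held 90.1% of the sum of squares of IFITM1 in MOLM-13, and 72.7%, 67.7% and 61.4% of those of IFI35, MX2 and STAT2 in THP-1. In THP-1 all 21 interferon genes were listed at 0 in every library. In MOLM-13 IFNB1 was listed at 0.148 FPKM in control replicate 3 and 0.0971 in JOA replicate 2, and IFNL3 at 0.0827 in control replicate 1. Total depth is unknown, and the part of interferon in this variation was not tested.

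**Figure D5:**
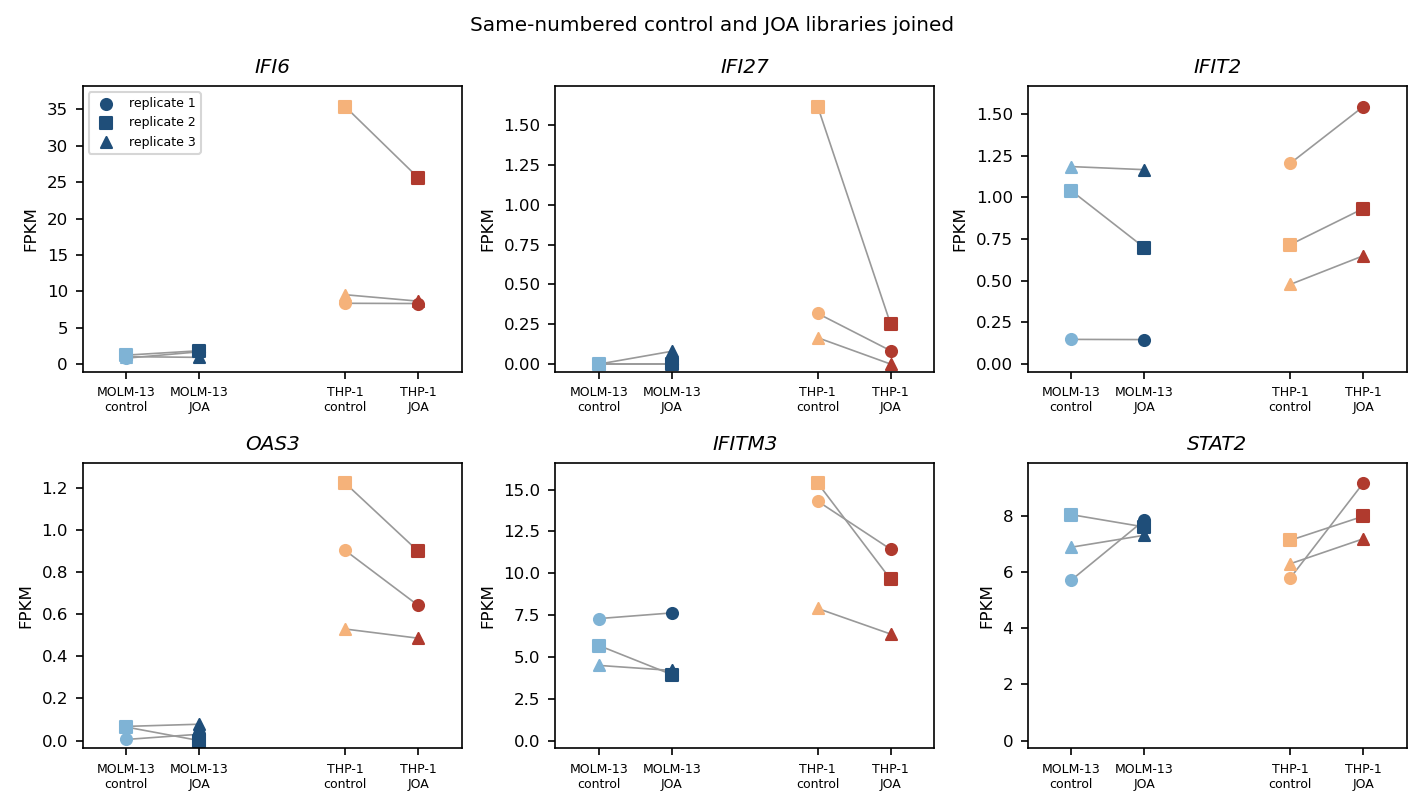
FPKM of IFI6, IFI27, IFIT2, OAS3, IFITM3 and STAT2 in each library, with lines that join control and JOA libraries of the same line and replicate number and a marker for each number (vertical axes start at or just below 0 and differ between genes). The THP-1 lines of IFI6 keep replicate 2 on top, at 35.4 and 25.6 FPKM, and those of STAT2 end higher with JOA in all 3 pairs.

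What the numbers stand for is not given in the sources used here, and the part of a shared culture, day or preparation was not tested. Relative depth differed between same-numbered libraries. In THP-1 control replicates 1, 2 and 3 it was 1.00, 1.07 and 0.949, and in the JOA replicates 0.936, 0.939 and 1.06. The deviations of same-numbered control and JOA libraries from their group means correlated at 0.722 to 0.832 across the 40 members tested in THP-1 and at 0.518 to 0.834 across the 33 in MOLM-13. Across all genes tested the same correlations were 0.139 to 0.319 and 0.264 to 0.398. Genes are not independent replicates, and these are descriptions of 3 pairs a line.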

How the data were processed

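RNA was profiled in 12 libraries (TruSeq Stranded mRNA, paired reads) of the 2 lines after 48 h with JOA or DMSO. The deposited table holds FPKM per gene, which the authors computed. The submitters' processing notes name Trimmomatic, HISAT2, Cufflinks and HTSeq and the build hg38. Versions and the annotation are not given in the sources used here. Counts were not analysed here, so no count-based test was run, and total depth is unknown. Relative depth within a line was taken from the most common ratio of low values. As FPKM is scaled to each library, depth limits low genes most. Groups and replicate numbers came from the sample titles.

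Values were tested as log2(FPKM + 0.1) for genes with a mean of at least 0.1 FPKM over the libraries fitted, with limma 3.58.1 in R 4.3.3 (moderated by a trend on mean level) and Benjamini-Hochberg adjustment over all genes tested. Genes were called at an adjusted p under 0.05 and an absolute log2 difference of at least 0.58, and interactions at an adjusted p under 0.05 alone. SE and 95% intervals came from limma. An exact permutation test of 3 against 3 libraries cannot go below a p of 0.1, so none is reported. Same-numbered control and JOA libraries of a line deviated together over all genes (correlation 0.264 to 0.398 in MOLM-13 and 0.139 to 0.319 in THP-1, differently numbered libraries -0.259 to 0.017), so the number was used as a pairing inferred from the data and a fit with it as a block is given beside the JOA results. On simulated data made from all genes of the table, the fit recovered 89% to 99% of changes of 1 on the log2 scale across the 5 comparisons. The changed genes were drawn only from genes at higher mean levels than many members, and the simulated noise had no part shared by replicate number. These shares therefore do not give the power for the members.

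Members and lists were chosen with earlier results of these data known. Values in every library are given for members called, the 5 largest differences in each JOA comparison, the 10 largest called between the control lines, and members of role groups of 4 or fewer. Genes of the pathway list are named where called or where they are a receptor, kinase or STAT. Of the listed pathway and marker genes, those not named in the text are not reported here by name. Some genes outside this rule are also named, chosen after their values were seen. Promoters came from the RefSeq table of GRCh38.p14 and shared 50-base windows from GENCODE v29 transcripts. Alternatives were the pseudocount, the filter, the scaling, the variance trend, the block, 1 fit over all 12 libraries, the call rule and leaving out libraries.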

Additional observations from a re-analysis of the deposited data

How the results depend on the processing

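No called difference changed sign under any alternative tried, whereas medians near 0 did. In MOLM-13 with JOA an unadjusted p gave 2 members lower in place of 0. In THP-1 with JOA the replicate block gave 1 lower in place of 0, and without single libraries the median ran from -0.16 to 0.12. Between the control lines, the median of 0.83 became 0.39 with a pseudocount of 1, 0.37 with a mean of at least 1 FPKM, 0.64 with no filter and 1.02 as TPM (all genes 0.17), and ran from 0.56 to 0.91 without single libraries. A mean of at least 1 FPKM left 10 higher, as fewer members were tested, and the adjusted p alone gave 5 lower. Between the treated lines, the median of 0.88 became 0.41 with a pseudocount of 1, 1.02 with 0.01, 0.50 with a mean of at least 1 FPKM and 1.10 as TPM (all genes 0.23), and ran from 0.63 to 1.12. A mean of at least 1 FPKM left 10 higher, and the adjusted p alone gave 5 lower. For the interaction an unadjusted p gave 3, all negative, and the median ran from -0.12 to 0.074 without single libraries. Between lines same-numbered libraries did not clearly pair (correlation 0.070 to 0.131 in control and -0.005 to 0.105 with JOA), and the replicate block gave 19 higher in control and 18 with JOA, in both without OASL. Leaving out both libraries of a number was chosen after seeing the data and called no member. With a pseudocount of 1 the calls of GBP2, HERC6, IFI44, MX1, OAS1 and OASL between control lines were lost, and those of GBP2, IFI44, IFIT5, MX1, OAS1 and OASL between treated lines. Between treated lines IFITM3 also lost its call with no filter and with no variance trend, and OASL with no filter. Depth limits most the 10 members too low to test in MOLM-13.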
